A study of Mus musculus with 6 samples.

Results

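The 33 genes described here encode the glucose transporters, the enzymes of glycolysis and of the pentose phosphate pathway, lactate dehydrogenase, and the pyruvate dehydrogenase complex with its kinases. They were taken by name, 33 of the 19532 gene rows of the deposited table, and each of the 33 symbols had a row. The data are single-cell 3' transcript counts from mouse embryonic stem cells, made with SORT-seq, a plate-based method that tags each captured molecule with a unique molecular identifier (UMI). The established lines IB10 and R1 each gave 1 library in each of 3 culture conditions, so there were 6 libraries of 188 wells. Primed_4d cells had 4 days of LIF, 12 ng/ml FGF2, 20 ng/ml human Activin A and 2 µM IWP2, a blocker of WNT secretion (passage 28 in IB10, 24 in R1). Rosette_LIM cells had LIF, 2 µM IWP2 and 0.1 µM PD325901, a MEK inhibitor, for 5 passages in IB10 (passage 33) and 6 in R1 (passage 28). LIF_2i cells, the naive culture, had LIF, 3 µM CHIR99021, which inhibits GSK3, and 0.1 µM PD325901 (passage 28 in IB10, 24 in R1). LIF, serum-free N2B27 medium and plates coated with gelatin and fetal calf serum were common to all 6 libraries.

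Glycolysis turns glucose into pyruvate in the cytosol: hexokinase and phosphofructokinase spend ATP in its preparatory steps, and phosphoglycerate kinase and pyruvate kinase regain it in the payoff steps. Pyruvate is then reduced to lactate by lactate dehydrogenase or passed into mitochondria, where the pyruvate dehydrogenase complex makes acetyl-CoA unless pyruvate dehydrogenase kinases switch it off, while the pentose phosphate pathway diverts glucose 6-phosphate into NADPH and ribose. Several steps have more than 1 isozyme, and mouse primed pluripotent cells are known for a more glycolytic metabolism than naive ones.

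The libraries held 5298692 (IB10) and 4675388 (R1) UMIs in primed_4d, 5164933 and 5835894 in rosette_LIM, and 7806882 and 6868408 in LIF_2i. In the R1 primed_4d library 84 of 188 wells had under 6000 UMIs, against 4 to 38 in the others, and the 2 richest R1 LIF_2i wells took 8.60% and 5.13% of that library. Leaving out the wells under 6000 UMIs ended no call on the 33 genes. The 8 naive markers summed to between 360 and 402 CPM (UMIs scaled to a common library size) in primed_4d, 2514 to 2801 in rosette_LIM and 2757 to 2901 in LIF_2i, and the 6 primed markers to between 1202 and 1211, 76.8 to 97.1 and 97.2 to 109 CPM in the same order. The primed sum hides moves both ways. In rosette_LIM against LIF_2i 3 of the 6 were called higher and 1 lower in edgeR, with a median log2 difference of 0.905. Of all genes 3.18% were called higher and 2.34% lower there. The calls on Pou3f1 (higher) and Dnmt3b (lower) ended when either LIF_2i library was left out. The 3 core pluripotency markers summed to between 1352 and 1356 CPM in primed_4d, 1642 to 1781 in rosette_LIM and 1465 to 1657 in LIF_2i. Of the other lineages, the 3 neuroectoderm markers summed to between 43.9 and 93.5 CPM in primed_4d, 36.3 to 38.6 in rosette_LIM and 12.3 to 17.6 in LIF_2i. The 4 trophectoderm markers summed to between 2.65 and 6.19, 12.7 to 12.9 and 19.1 to 19.3 CPM, and the 4 mesendoderm markers to between 2.08 and 4.06, 6.25 to 7.21 and 11.3 to 12.9 CPM, in that order of conditions. The sums of the 4 markers of 2-cell-like cells lay between 9.98 and 29.0 CPM, of the 6 primitive endoderm markers between 3.78 and 7.90 CPM, and of the 5 feeder fibroblast markers between 1.36 and 3.03 CPM, with Col3a1 and Lum at 0 in all libraries. The part of these other cell types in the results below was not tested.

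**Figure D1:**
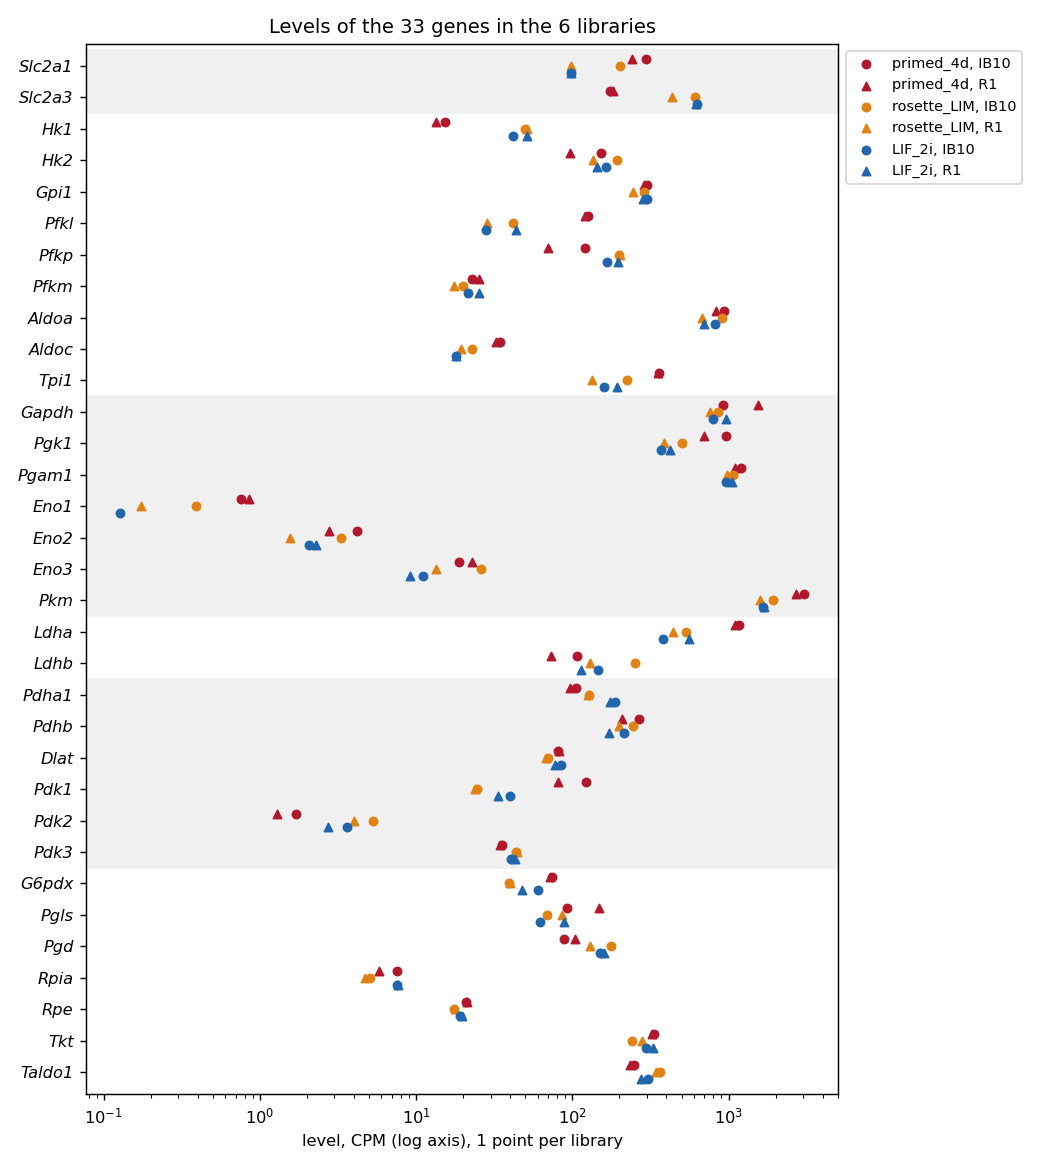
Levels of the 33 genes in CPM (log axis), 1 point per library, coloured by condition, with circles for IB10 and triangles for R1; grey bands separate the roles. The level of Pkm lies between 1598 and 3049 CPM, that of Eno1 under 1 CPM (its R1 LIF_2i library, at 0, cannot be drawn), and the primed_4d points stand to the right for Slc2a1, Pfkl, Tpi1, Ldha and Pdk1 and to the left for Slc2a3, Hk1 and Pfkp.

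Cells of 1 library are not replicates, so UMIs were summed per library and the conditions compared with edgeR's quasi-likelihood test over 2 libraries a condition, with the cell line as a term and a call at an adjusted p under 0.05. Of the 33 genes, 32 passed the filter on low counts; Eno1 did not, with 12 UMIs in the 6 libraries together. In primed_4d against LIF_2i cells 13 of the 32 rose and 7 fell, which is 62.5%, where 37.9% of all 12098 genes tested were called (18.3% higher, 19.6% lower). In primed_4d against rosette_LIM cells 12 rose and 9 fell, which is 65.6%, where 36.1% of all genes were called (17.1% higher, 19% lower). In rosette_LIM against LIF_2i cells 2 rose and 1 fell, where 5.52% of all genes were called (3.18% higher, 2.34% lower). The 2 comparisons with primed_4d share its libraries, so they are not independent; 11 genes rose in both, 7 fell in both and 9 were called in no comparison of conditions. Left-out libraries moved some of these counts: 9 rose and 3 fell in primed_4d against LIF_2i without R1 LIF_2i, 11 rose and 5 fell in primed_4d against rosette_LIM without IB10 rosette_LIM, and in rosette_LIM against LIF_2i none was called without R1 LIF_2i or without IB10 LIF_2i (edgeR; 0 higher and 0 lower), 0 rose and 4 fell without IB10 rosette_LIM, and 3 rose and 2 fell without any 1 of the other 3. Isozymes of 1 step often went opposite ways: Slc2a1 rose and Slc2a3 fell, Pfkl rose and Pfkp fell, and Ldha rose and Ldhb fell, in primed_4d cells against either other condition. Groups without overlap between their libraries were common in this table: they were 24 of the 32 genes in primed_4d against LIF_2i (68.3% of all genes tested), 26 in primed_4d against rosette_LIM (65.5%) and 16 in rosette_LIM against LIF_2i (48.5%). The median log2 difference over the 32 genes was 0.15 in primed_4d against LIF_2i, 0.24 in primed_4d against rosette_LIM and 0.06 in rosette_LIM against LIF_2i, beside medians of -0.009, -0.003 and 0.002 over all genes.

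**Figure D2:**
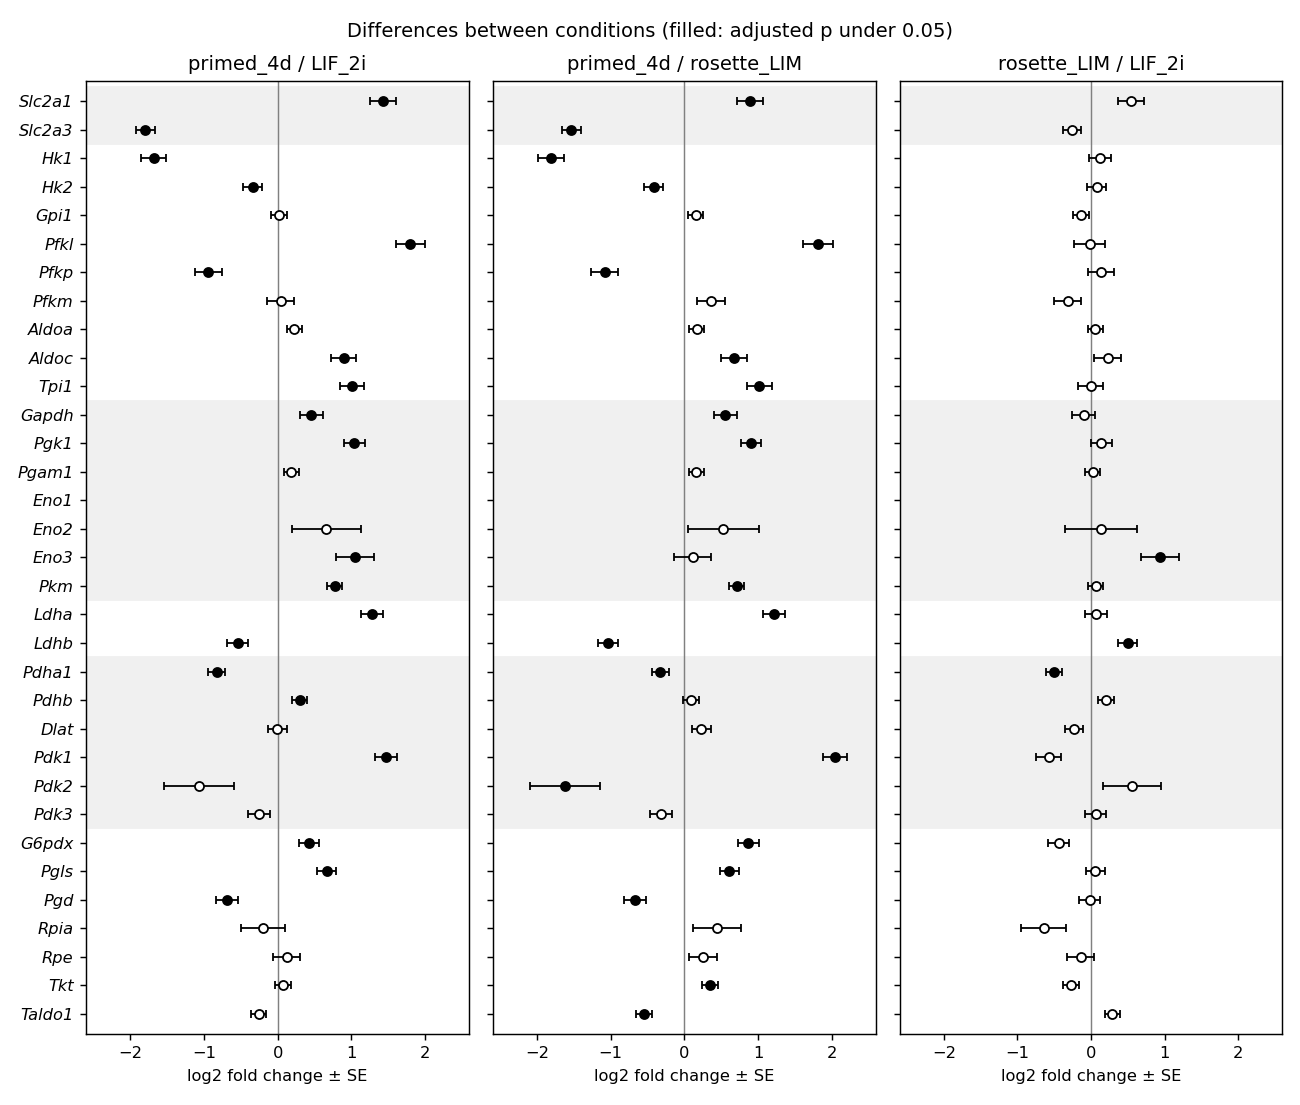
Log2 fold changes ± SE from edgeR for the 32 genes tested, in primed_4d over LIF_2i (left), primed_4d over rosette_LIM (middle) and rosette_LIM over LIF_2i (right); filled points have an adjusted p under 0.05. The left and middle panels have 20 and 21 filled points and the right panel 3.

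Together the 33 genes took 1.14% (IB10) and 1.09% (R1) of all UMIs in primed_4d, 0.927% and 0.762% in rosette_LIM, and 0.825% and 0.876% in LIF_2i. Both primed_4d libraries lay above the other 4, and the mean share was 1.31 times that of LIF_2i. The 7 payoff genes took 0.614% and 0.605% in primed_4d against 0.382% and 0.420% in LIF_2i, a ratio of 1.52, and both lactate dehydrogenase genes 0.127% and 0.117% against 0.0527% and 0.0681%, a ratio of 2.02. The payoff and 33-gene sums hold almost no Eno1, with 12 UMIs in all libraries. They include Gapdh, at 919 (IB10) and 1537 (R1) CPM in primed_4d, whose counts are uncertain (below). The 9 preparatory genes had a ratio of 1.15, the 6 genes of pyruvate dehydrogenase and its kinases 1.03, the 7 pentose phosphate genes 0.961 and the 2 glucose transporters 0.616. In bulk sums fewer cells with a transcript and less of it per cell cannot be told apart, so the share was also taken per well. Among wells with at least 6000 UMIs the median well gave the 33 genes 1.10% (IB10, 170 wells) and 1.04% (R1, 104 wells) in primed_4d, 0.905% (150 wells) and 0.704% (179 wells) in rosette_LIM, and 0.801% (184 wells) and 0.811% (160 wells) in LIF_2i. The lower quartile of wells in either primed_4d library, 0.963% and 0.919%, was at or above the upper quartile in LIF_2i, 0.863% and 0.918%. The higher share than in LIF_2i was thus seen over most wells. The upper quartiles in rosette_LIM were 1.01% (IB10) and 0.806% (R1), so the IB10 rosette_LIM wells overlapped more with those of primed_4d. Spearman's rho between the share and a well's UMIs lay between 0.10 and 0.36 in the 6 libraries.

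**Figure D3:**
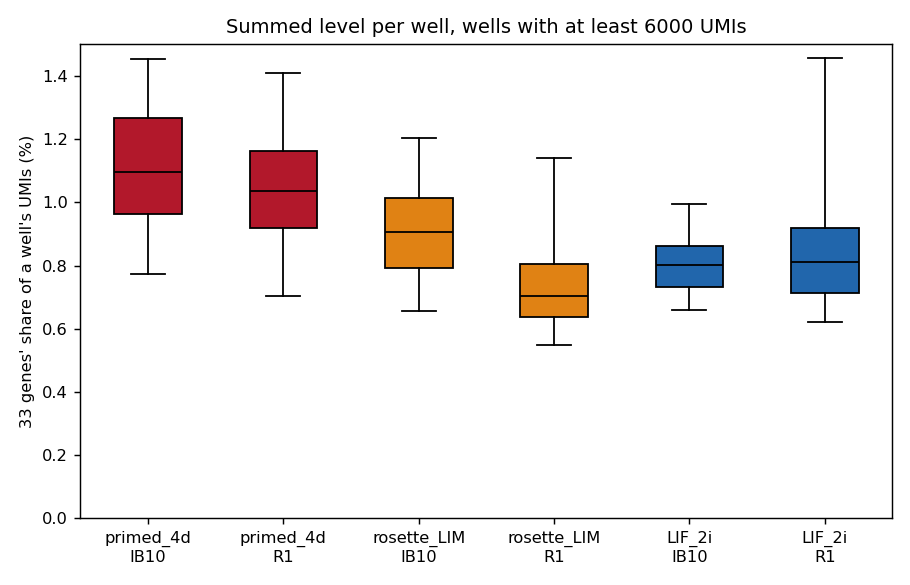
Share of each well's UMIs taken by the 33 genes, in percent, for wells with at least 6000 UMIs; boxes span the quartiles, lines mark medians and whiskers the 5th and 95th percentiles. Both primed_4d medians, 1.10% and 1.04%, are above the rosette_LIM medians of 0.905% and 0.704% and the LIF_2i medians of 0.801% and 0.811%.

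Glucose enters through the transporters GLUT1, encoded by Slc2a1 (chr4:119108711-119137983, GRCm38), and GLUT3, encoded by Slc2a3 (chr6:122727809-122801640), which has a high affinity for glucose. Slc2a1 had 296 and 241 CPM in the IB10 and R1 primed_4d libraries, 201 and 98.7 CPM in rosette_LIM and 97.4 and 98.5 CPM in LIF_2i. Slc2a3 ran the other way, with 175 and 181 CPM in primed_4d, 608 and 436 CPM in rosette_LIM and 623 and 615 CPM in LIF_2i. Neither gene's primed_4d libraries overlapped those of another condition. In primed_4d against LIF_2i cells the log2 change was 1.44 ± 0.18 for Slc2a1 (SE; adjusted p = 1.84e-05) and -1.80 ± 0.13 for Slc2a3 (adjusted p = 9.3e-08), and against rosette_LIM cells 0.89 ± 0.18 (adjusted p = 0.00115) and -1.54 ± 0.13 (adjusted p = 4.68e-07). With DESeq2 the adjusted p of Slc2a1 in primed_4d against rosette_LIM was 0.0603. A 3' UMI count does not grow with transcript length, so the isozymes of a step were set beside each other as shares of their summed UMIs. How fully the transcripts of each gene were counted may differ and was not tested, so these are shares of counted UMIs only. Slc2a1 made up 62.8% and 57.1% of the transporter UMIs in primed_4d, 24.8% and 18.4% in rosette_LIM and 13.5% and 13.8% in LIF_2i. The 95% Wilson intervals of counting error in primed_4d were 60.9% to 64.7% and 54.9% to 59.2%. With 2 libraries a group an exact permutation test cannot go below p = 0.33, so shares were not tested.

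Hexokinase traps glucose in the cell, with Hk1 (chr10:62268855-62379908) as the broadly expressed form and Hk2 as the form known from insulin-sensitive tissue and tumours. Hk1 had 15.3 and 13.4 CPM in the IB10 and R1 primed_4d libraries, 49.7 and 51.4 CPM in rosette_LIM and 42.0 and 51.4 CPM in LIF_2i. Hk2 had 152 and 96.5 CPM in primed_4d, 194 and 136 CPM in rosette_LIM and 164 and 144 CPM in LIF_2i. Hk1 was 3.22-fold lower in primed_4d than in LIF_2i, while the Hk2 libraries of the 3 conditions overlapped. The log2 change of Hk1 was -1.69 ± 0.18 against LIF_2i (adjusted p = 3.42e-06) and -1.81 ± 0.18 against rosette_LIM (adjusted p = 2.28e-06). Hk2 changed by -0.34 ± 0.13 (adjusted p = 0.0483) and -0.42 ± 0.13 (adjusted p = 0.0199). The Hk2 calls ended without R1 primed_4d (adjusted p = 0.391 and 0.205), without R1 or IB10 LIF_2i (0.607 and 0.0537 against LIF_2i) and without IB10 rosette_LIM (0.0792 against rosette_LIM), and also without the cell line term (0.293 and 0.175). DESeq2 ended both Hk2 calls as well (adjusted p = 0.156 against LIF_2i and 0.0705 against rosette_LIM). Hk2 held 90.8% and 87.8% of the hexokinase UMIs in primed_4d, 79.6% and 72.6% in rosette_LIM and 79.6% and 73.7% in LIF_2i. Gpi1, which turns glucose 6-phosphate into fructose 6-phosphate, lay between 244 and 302 CPM in all 6 libraries and was called in no comparison.

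Phosphofructokinase catalyses the committed step of glycolysis with liver (Pfkl, chr10:77986947-78010083), platelet (Pfkp, chr13:6579768-6648777) and muscle (Pfkm) subunits. Pfkl had 126 and 121 CPM in the IB10 and R1 primed_4d libraries, 41.7 and 28.5 CPM in rosette_LIM and 27.9 and 43.3 CPM in LIF_2i. Pfkp had 121 and 69.4 CPM in primed_4d, 198 and 203 CPM in rosette_LIM and 166 and 197 CPM in LIF_2i. Pfkl stood apart in both primed_4d libraries and Pfkp was lower there than in any other library, with a wider gap between the lines. Pfkl rose by 1.80 ± 0.20 on the log2 scale against LIF_2i (3.48-fold, adjusted p = 5.39e-06) and by 1.82 ± 0.20 against rosette_LIM (adjusted p = 7.43e-06). Pfkp fell by 0.95 ± 0.18 against LIF_2i (adjusted p = 0.000918; 0.076 without R1 LIF_2i, with a log2 change of -0.66) and by 1.08 ± 0.18 against rosette_LIM (adjusted p = 0.000347). Pfkm lay between 17.4 and 25.4 CPM and was not called. As shares of the 3 subunits' UMIs, Pfkl took 46.6% and 56.1% in primed_4d, 16.1% and 11.4% in rosette_LIM and 12.9% and 16.3% in LIF_2i. Pfkp took 44.9% and 32.2%, 76.2% and 81.6%, and 77.1% and 74.1% in the same order. In UMIs counted, the leading subunit was thus Pfkp in all 4 rosette_LIM and LIF_2i libraries. It was Pfkl in R1 primed_4d, and Pfkl and Pfkp were close in IB10 primed_4d.

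**Figure D4:**
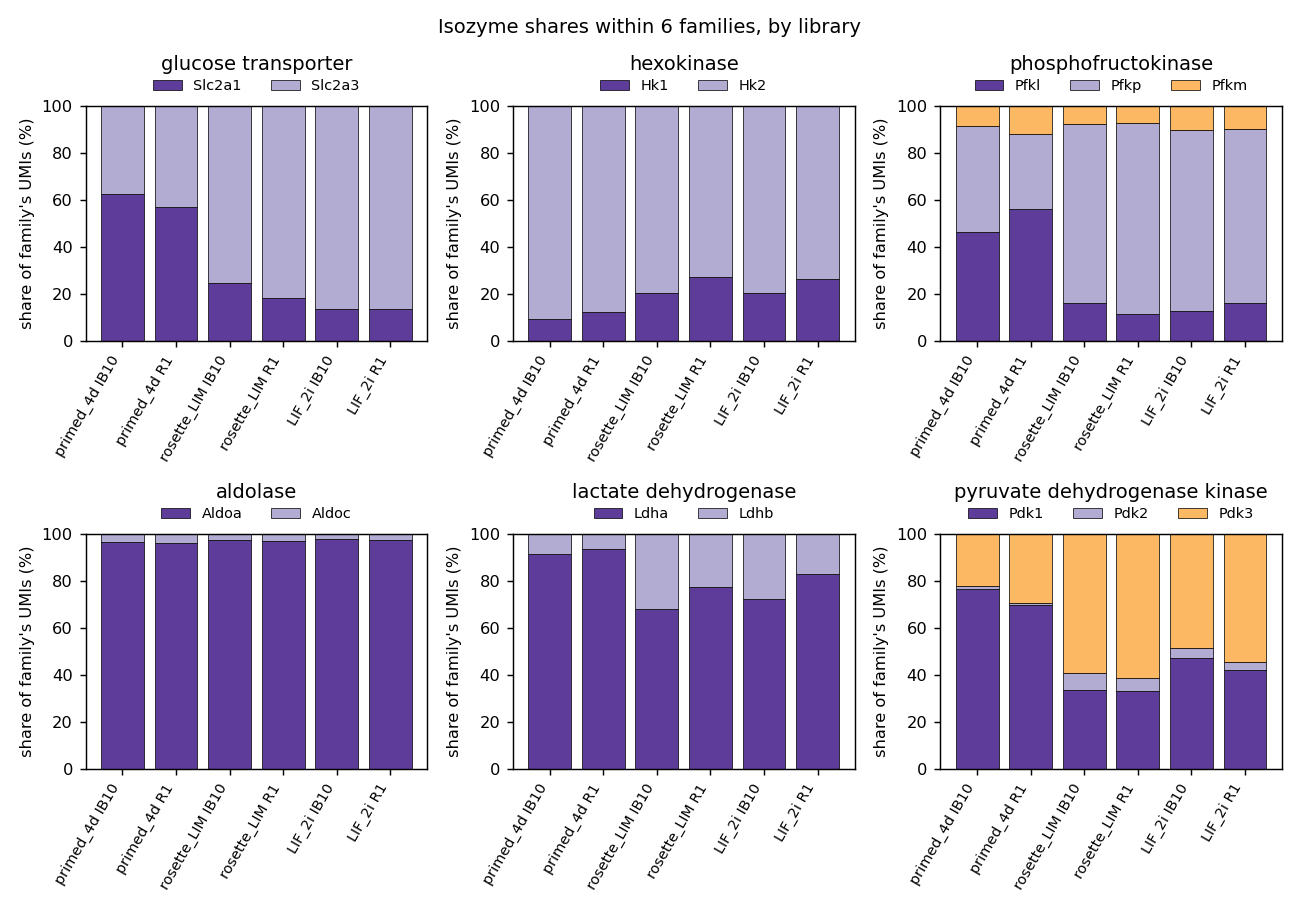
Share of each family's UMIs taken by its isozymes, in percent, by library, for glucose transporters, hexokinases, phosphofructokinase subunits, aldolases, lactate dehydrogenases and pyruvate dehydrogenase kinases. Slc2a1 takes 62.8% and 57.1% of its family in primed_4d against 13.5% and 13.8% in LIF_2i, and the rosette_LIM bars lie nearer to the LIF_2i bars than to the primed_4d bars for Slc2a1, Hk1, Pfkl and Ldhb.

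Aldolase and triose phosphate isomerase complete the preparatory steps. Aldoa, the main form, lay between 677 and 939 CPM and was not called, while Aldoc, the form known from brain, had 34.2 and 32.7 CPM in primed_4d, 22.8 and 19.3 CPM in rosette_LIM and 17.9 and 18.0 CPM in LIF_2i. Aldoc rose by 0.90 ± 0.17 against LIF_2i (adjusted p = 0.000893) and by 0.67 ± 0.18 against rosette_LIM (adjusted p = 0.00784; 0.0668 without R1 rosette_LIM and 0.064 with DESeq2). It still made up no more than 3.8% of aldolase UMIs in any library. Tpi1 (chr6:124810586-124814296), which interconverts the triose phosphates, had 361 and 353 CPM in primed_4d, 223 and 134 CPM in rosette_LIM and 160 and 193 CPM in LIF_2i. Both primed_4d libraries exceeded all others, with a log2 change of 1.01 ± 0.17 against LIF_2i (adjusted p = 0.000286) and 1.02 ± 0.17 against rosette_LIM (adjusted p = 0.000331).

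The payoff steps run from Gapdh, which oxidises glyceraldehyde 3-phosphate, through Pgk1, Pgam1 and enolase to pyruvate kinase. Pgk1 (chrX:106187100-106203699), the ATP-forming phosphoglycerate kinase, had 965 and 693 CPM in the IB10 and R1 primed_4d libraries, 502 and 384 CPM in rosette_LIM and 369 and 422 CPM in LIF_2i. Pkm (chr9:59656368-59679375), whose transcripts make pyruvate kinase, had 3049 and 2689 CPM in primed_4d, 1912 and 1598 CPM in rosette_LIM and 1666 and 1678 CPM in LIF_2i. For both genes the primed_4d libraries lay above all others. Pgk1 rose by 1.04 ± 0.14 against LIF_2i (adjusted p = 3.43e-05) and by 0.90 ± 0.14 against rosette_LIM (adjusted p = 0.000143), and Pkm by 0.77 ± 0.10 (adjusted p = 2.49e-05) and 0.71 ± 0.10 (adjusted p = 6.15e-05). Counts of 3' ends do not separate the Pkm1 and Pkm2 splice forms, which share their last exons.

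Gapdh had 919 and 1537 CPM in primed_4d, 861 and 760 CPM in rosette_LIM and 800 and 960 CPM in LIF_2i. Its height in primed_4d was that of the R1 library, and the IB10 value lay within the LIF_2i range. Gapdh changed by 0.46 ± 0.15 against LIF_2i (adjusted p = 0.0293) and by 0.56 ± 0.16 against rosette_LIM (adjusted p = 0.0114). Without R1 primed_4d the log2 change was 0.09 against LIF_2i (adjusted p = 0.697) and 0.20 against rosette_LIM (0.304); the calls also ended without R1 or IB10 LIF_2i (0.24 and 0.198, against LIF_2i), without R1 rosette_LIM (0.214, against rosette_LIM) and without the cell line term against LIF_2i (0.0871). Both Gapdh calls ended with DESeq2 too (adjusted p = 0.321 against LIF_2i and 0.215 against rosette_LIM). Gapdh has many near-identical copies: 61.1% of the 60-base words in the last 500 bases of its transcripts occurred in transcripts of 147 other genes. No source used here says how reads that match several genes were counted, so its counts are uncertain. Smaller parts of the end words were shared with other genes for some further members, among them Gpi1 (22.1%), Pkm (12.8%) and Ldha (8.48%). Pgam1, phosphoglycerate mutase, lay between 963 and 1201 CPM and was not called.

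Enolase, the next step, was represented in the counts by minor forms. Eno1, the ubiquitous enolase, had 4 UMIs in each primed_4d library, 2 (IB10) and 1 (R1) in rosette_LIM, and 1 (IB10) and 0 (R1) in LIF_2i. In the GENCODE annotation 66.2% of its end words are shared with other genes, foremost Eno1b, and the row Gm5506 held 71 UMIs, so the enolase level of these cells cannot be read from the table. Eno3, the muscle form, had 18.7 and 22.6 CPM in primed_4d, 25.9 and 13.4 CPM in rosette_LIM and 11.01 and 9.14 CPM in LIF_2i. Eno3 was higher than in LIF_2i in both, by 1.05 ± 0.26 in primed_4d (adjusted p = 0.00562) and by 0.93 ± 0.26 in rosette_LIM (adjusted p = 0.0499). For rosette_LIM the adjusted p with DESeq2 was 0.23. The primed_4d call ended without R1 LIF_2i, IB10 LIF_2i or R1 primed_4d (adjusted p = 0.0744, 0.0971 and 0.139), and the rosette_LIM call without R1 LIF_2i, IB10 LIF_2i or IB10 rosette_LIM (0.378, 0.467 and 0.577) and without the cell line term (0.131). Eno2, the neuronal form, lay between 1.56 and 4.16 CPM and was not called.

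Lactate dehydrogenase is built from Ldha (chr7:46841475-46855627) and Ldhb (chr6:142490249-142507957) subunits; Ldha is known to favour lactate formation and Ldhb the use of lactate. Promoters of both are shown with those of 4 genes that rose with Ldha. Of these, Pgk1 and Slc2a1 hold ACGTG, and Pfkl and Pdk1 do not. ACGTG is a form of the core of the sequence bound by hypoxia-inducible factor (HIF), and CACGTG is the E-box bound by MYC. Both factors are known regulators of glycolytic genes. GCGTG, another form of the HIF core, was not searched and can be read in the Ldhb, Pfkl and Pdk1 windows below. Each line gives the 250 bases before the transcript start in RefSeq (build GRCm38.p6), 5′ to 3′ on the gene's strand, with ACGTG on either strand in capitals, so that CACGTG, which holds ACGTG on both strands, is also in capitals. The windows are chr7:46845554-46845803 (+) for Ldha, chr6:142507958-142508207 (-) for Ldhb, chrX:106186850-106187099 (+) for Pgk1, chr4:119108495-119108744 (+) for Slc2a1, chr10:78009808-78010057 (-) for Pfkl and chr2:71872974-71873223 (+) for Pdk1.
Ldha: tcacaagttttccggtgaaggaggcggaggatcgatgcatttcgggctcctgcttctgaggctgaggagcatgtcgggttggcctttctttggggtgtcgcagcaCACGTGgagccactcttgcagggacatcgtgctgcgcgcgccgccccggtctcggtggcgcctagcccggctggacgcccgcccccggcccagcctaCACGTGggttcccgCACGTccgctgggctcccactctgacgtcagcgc
Ldhb: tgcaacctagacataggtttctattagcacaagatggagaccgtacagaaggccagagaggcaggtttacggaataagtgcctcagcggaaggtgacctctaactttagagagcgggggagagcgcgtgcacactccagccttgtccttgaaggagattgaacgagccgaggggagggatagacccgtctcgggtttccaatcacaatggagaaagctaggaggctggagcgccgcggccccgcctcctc
Pgk1: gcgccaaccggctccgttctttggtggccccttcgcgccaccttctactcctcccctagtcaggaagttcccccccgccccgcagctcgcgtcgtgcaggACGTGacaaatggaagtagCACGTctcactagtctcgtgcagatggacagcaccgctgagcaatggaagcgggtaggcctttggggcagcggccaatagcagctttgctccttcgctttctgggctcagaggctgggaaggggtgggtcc
Slc2a1: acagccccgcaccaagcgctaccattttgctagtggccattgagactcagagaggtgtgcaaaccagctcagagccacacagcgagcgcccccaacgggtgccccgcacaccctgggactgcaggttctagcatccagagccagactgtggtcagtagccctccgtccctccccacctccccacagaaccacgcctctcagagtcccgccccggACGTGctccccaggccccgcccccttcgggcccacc
Pfkl: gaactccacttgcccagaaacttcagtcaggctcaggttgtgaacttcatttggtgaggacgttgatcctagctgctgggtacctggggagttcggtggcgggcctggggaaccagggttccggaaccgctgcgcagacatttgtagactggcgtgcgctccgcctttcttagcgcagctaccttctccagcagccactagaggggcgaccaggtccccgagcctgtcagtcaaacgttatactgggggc
Pdk1: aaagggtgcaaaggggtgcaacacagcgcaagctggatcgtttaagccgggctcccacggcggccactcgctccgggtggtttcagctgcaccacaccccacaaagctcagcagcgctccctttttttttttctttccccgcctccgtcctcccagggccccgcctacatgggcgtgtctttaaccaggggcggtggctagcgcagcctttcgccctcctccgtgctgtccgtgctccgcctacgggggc
The Ldha window shown held 3 separate stretches, of which 2 were CACGTG, between 145 and 34 bases before the start, while the other RefSeq start of Ldha (window chr7:46846832-46847081) had none. The Pgk1 promoter held 2 stretches, 150 and 131 bases before the start, the Slc2a1 promoter 1, 36 bases before it, and the Ldhb, Pfkl and Pdk1 windows none. RefSeq had windows of 250 bases before to 50 after a start for 32 of the 33 genes (Slc2a3 had none), 46 windows in all. Of these 37.0% held ACGTG on either strand, against 19.6% of all 32851 mouse windows, and 6.5% held CACGTG, against 7.2%. ACGTG was in a window of 8 of the 13 genes that rose in primed_4d against LIF_2i (not of Pfkl, Tpi1, Eno3, Pdk1 and Pgls), 2 of the 6 genes with a window that fell and 5 of the 12 that were not called. These are counts of genes, some with several windows, so the 19.6% of windows is not their background. The share of all genes with ACGTG in a window was not counted, so a difference between these counts was not tested. Windows of 1 gene can overlap and share a match, as some of Aldoa do. A match describes the letters only, and binding was not measured.

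Ldha had 1166 and 1095 CPM in the IB10 and R1 primed_4d libraries, 531 and 442 CPM in rosette_LIM and 380 and 555 CPM in LIF_2i. Ldhb had 108 and 73.0 CPM in primed_4d, 251 and 130 CPM in rosette_LIM and 147 and 113 CPM in LIF_2i. Ldha was clearly separated in primed_4d, and Ldhb was lowest in primed_4d and highest in rosette_LIM within each line. Ldha rose by 1.28 ± 0.15 against LIF_2i (2.43-fold, adjusted p = 1.08e-05) and by 1.22 ± 0.15 against rosette_LIM (adjusted p = 2.02e-05). Ldhb fell in primed_4d by 0.54 ± 0.14 against LIF_2i (adjusted p = 0.00646) and by 1.04 ± 0.14 against rosette_LIM (adjusted p = 4.35e-05), and rose in rosette_LIM against LIF_2i by 0.50 ± 0.13 (adjusted p = 0.043). For that rise the adjusted p with DESeq2 was 0.129. The fall against LIF_2i was not called without R1 LIF_2i (adjusted p = 0.236) or without the cell line term (0.173). The rise in rosette_LIM was not called without R1 LIF_2i, IB10 LIF_2i or IB10 rosette_LIM (0.196, 0.656 and 0.467, with log2 changes of 0.69, 0.30 and 0.24), nor without the cell line term (0.351). Ldhb made up 8.46% and 6.25% of lactate dehydrogenase UMIs in primed_4d, 32.1% and 22.8% in rosette_LIM and 27.9% and 16.9% in LIF_2i; 23.9% of its end words are shared with 1 other gene.

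The pyruvate dehydrogenase complex makes acetyl-CoA from pyruvate. Its catalytic subunit gene Pdha1 (chrX:160122209-160138413) had 106 and 97.1 CPM in the IB10 and R1 primed_4d libraries, 128 and 127 CPM in rosette_LIM and 187 and 173 CPM in LIF_2i. The 3 conditions did not overlap, and both lines gave the same order. Pdha1 fell by 0.83 ± 0.11 in primed_4d against LIF_2i (adjusted p = 4.71e-05), by 0.50 ± 0.11 in rosette_LIM against LIF_2i (adjusted p = 0.0161) and by 0.32 ± 0.12 in primed_4d against rosette_LIM (adjusted p = 0.0391). Between primed_4d and rosette_LIM the adjusted p with DESeq2 was 0.157. The rosette_LIM call ended without R1 or IB10 LIF_2i (adjusted p = 0.297 and 0.335) and without the cell line term (0.0531); the call between primed_4d and rosette_LIM ended without any 1 of the 6 libraries (0.0633 to 0.196) and without the cell line term (0.0636). Pdhb, which codes for the partner subunit, had 267 and 207 CPM in primed_4d, 243 and 200 CPM in rosette_LIM and 213 and 172 CPM in LIF_2i. Its log2 change of 0.30 ± 0.11 in primed_4d against LIF_2i (adjusted p = 0.0383) was not called when any of the 4 libraries compared was left out (0.0725 to 0.259) or without the cell line term (0.177). Nor was Pdhb called in that comparison with DESeq2 (adjusted p = 0.0951). Dlat, the acetyltransferase of the complex, lay between 68.3 and 84.6 CPM and was not called.

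Of the kinases that switch the complex off, Pdk1 (chr2:71873224-71903858), a known HIF target, had 123 and 81.3 CPM in primed_4d, 24.6 and 23.97 CPM in rosette_LIM and 39.7 and 33.3 CPM in LIF_2i. It was highest in primed_4d and lowest in rosette_LIM in both lines. Pdk1 rose by 2.05 ± 0.16 in primed_4d against rosette_LIM (4.14-fold, adjusted p = 2.39e-07) and by 1.47 ± 0.15 against LIF_2i (adjusted p = 2.92e-06); in rosette_LIM against LIF_2i the difference was -0.58 ± 0.17 (adjusted p = 0.0577). Pdk2 had 1.70 and 1.28 CPM in primed_4d, 5.26 and 4.00 CPM in rosette_LIM and 3.58 and 2.71 CPM in LIF_2i. Pdk2 fell by 1.62 ± 0.47 in primed_4d against rosette_LIM (adjusted p = 0.0144), a call that ended without IB10 rosette_LIM, R1 primed_4d or IB10 primed_4d (0.0661, 0.0587 and 0.0826). The Pdk2 call also ended with DESeq2 (adjusted p = 0.12). Pdk3 lay between 34.4 and 44.1 CPM and was not called. As shares of the 3 kinases' UMIs, Pdk1 took 76.8% and 69.5% in primed_4d, 33.6% and 33.3% in rosette_LIM and 47.3% and 42.1% in LIF_2i, and Pdk3 took 22.2% and 29.4%, 59.2% and 61.2%, and 48.4% and 54.4%.

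In the oxidative arm of the pentose phosphate pathway, G6pdx, glucose 6-phosphate dehydrogenase, had 73.6 and 71.9 CPM in primed_4d, 39.4 and 40.1 CPM in rosette_LIM and 60.5 and 47.8 CPM in LIF_2i. Pgls, the lactonase (chr8:71592176-71601092), had 92.3 and 148 CPM, 68.6 and 86.0 CPM, and 61.8 and 88.1 CPM in the same order. Pgd, which makes ribulose 5-phosphate, had 88.7 and 104 CPM in primed_4d, 176 and 130 CPM in rosette_LIM and 149 and 160 CPM in LIF_2i. The enzymes of this arm therefore did not move together: the genes of its earlier steps were higher and Pgd lower in primed_4d. G6pdx rose by 0.87 ± 0.15 against rosette_LIM (adjusted p = 0.000326) and by 0.43 ± 0.14 against LIF_2i (adjusted p = 0.0257, and 0.112 with DESeq2). The call against LIF_2i ended without any of the 4 libraries compared (0.0503 to 0.397). Pgls rose by 0.67 ± 0.13 against LIF_2i (adjusted p = 0.00088) and by 0.61 ± 0.13 against rosette_LIM (adjusted p = 0.00202; 0.0594 without the cell line term). Pgd fell by 0.69 ± 0.15 against LIF_2i (adjusted p = 0.00184; 0.0982 without R1 LIF_2i) and by 0.67 ± 0.15 against rosette_LIM (adjusted p = 0.00258; 0.0774 without IB10 rosette_LIM).

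In the non-oxidative arm, Taldo1, transaldolase, had 247 and 236 CPM in the IB10 and R1 primed_4d libraries, 363 and 342 CPM in rosette_LIM and 303 and 275 CPM in LIF_2i. Tkt, transketolase, had 332 and 324 CPM in primed_4d, 240 and 278 CPM in rosette_LIM and 296 and 328 CPM in LIF_2i. Taldo1 was highest and Tkt lowest in rosette_LIM, but neither was called in rosette_LIM against LIF_2i (edgeR adjusted p = 0.125 and 0.177). In primed_4d against rosette_LIM cells Taldo1 fell by 0.55 ± 0.10 (adjusted p = 0.000857) and Tkt rose by 0.35 ± 0.11 (adjusted p = 0.0217). The Tkt call ended without IB10 rosette_LIM or IB10 primed_4d (0.116 and 0.195) and without R1 or IB10 LIF_2i (0.0651 and 0.0642). Rpia, ribose 5-phosphate isomerase, lay between 4.69 and 7.71 CPM, Rpe, the epimerase, between 17.5 and 21.1 CPM, and neither was called.

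Between rosette_LIM and LIF_2i cells, 9 of the genes moved the same way in both lines, each beyond its own 95% interval of counting error: Eno3, Ldhb, Pdhb and Taldo1 were higher and Pdha1, Dlat, Pdk1, G6pdx and Tkt lower in rosette_LIM. For 8 genes the lines moved in opposite directions by the same measure: Pfkl, Tpi1, Gapdh, Pgk1, Pgam1, Pkm, Ldha and Pgd were higher in IB10 rosette_LIM and lower in R1 rosette_LIM. Neither count was made over all genes, so whether it is particular to this set was not tested. Counting intervals are narrow for abundant genes, and Pkm passed in R1 with a difference of -0.07. Ldha differed by 0.48 in IB10 (interval 0.41 to 0.56) and by -0.33 in R1 (-0.40 to -0.26), Tpi1 by 0.48 (0.36 to 0.59) and -0.52 (-0.65 to -0.39), and Pfkl by 0.58 (0.31 to 0.85) and -0.60 (-0.88 to -0.33), all in log2 CPM. With 1 library per line and condition the difference between the lines was not tested, and the median of the 32 genes in this comparison was 0.17 without R1 LIF_2i and -0.14 without IB10 LIF_2i. The rosette_LIM cultures had 5 passages in their medium in IB10 and 6 in R1, and each was at a higher passage than the LIF_2i culture of its line, so within a line passage and condition cannot be told apart. Primed_4d against LIF_2i had no gene with opposite directions of this kind, and primed_4d against rosette_LIM had 1, Eno3, at -0.47 in IB10 and 0.76 in R1.

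**Figure D5:**
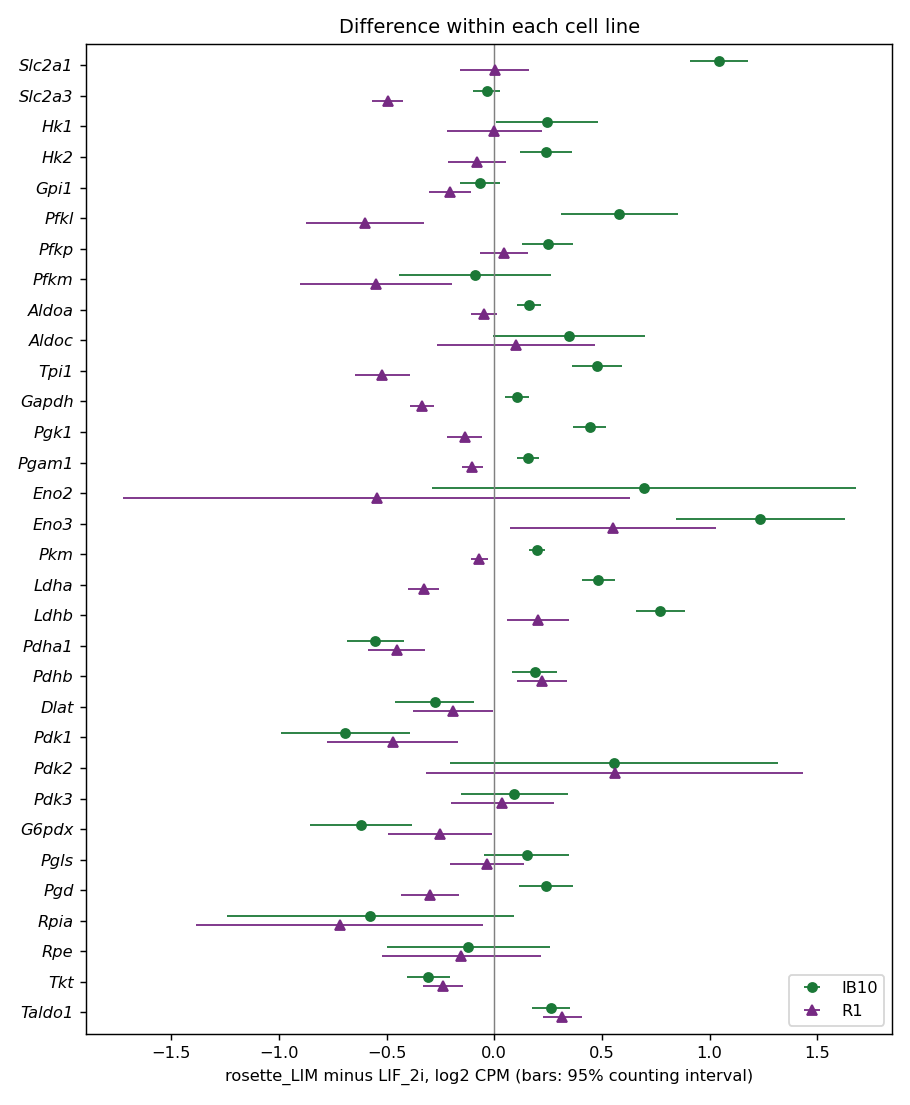
Rosette_LIM minus LIF_2i within each line, in log2 CPM, for 32 of the genes (Eno1 left out), with circles for IB10, triangles for R1 and bars for 95% counting intervals. The points of 8 genes lie on opposite sides of 0 with bars that do not reach it, while Eno3, Ldhb, Pdhb and Taldo1 lie right of 0 and Pdha1, Dlat, Pdk1, G6pdx and Tkt left of 0 in both lines, again with bars that do not reach it.

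Between the lines, Ldhb was higher in IB10 than in R1, by 0.63 ± 0.11 (adjusted p = 0.0167), and Pgls lower, by -0.51 ± 0.11 (adjusted p = 0.0386); 0.752% of all genes were called in this comparison (0.24% higher, 0.512% lower). Ldhb was higher in IB10 in 3 of 3 conditions and Pgls lower in 3 of 3. Without R1 or IB10 LIF_2i the adjusted p was 0.232 and 0.23 for Ldhb and 0.492 and 0.477 for Pgls, which was also not called without R1 or IB10 primed_4d (0.169 and 0.155) or with DESeq2 (0.0721). Without the condition term neither was called (adjusted p = 1.0). Pgls lies on chromosome 8, with no other of the 33 genes, where the median of 664 tested genes was -0.31; over 18 other chromosomes the medians lay between -0.03 and 0.03. Ldhb lies on chromosome 6 with Slc2a3, Hk2, Tpi1, Gapdh, Eno2 and Rpia, where the median of 563 genes was 0.09. Whether the lines differ in copies of these chromosomes was not tested.

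Neighbouring genes of the pathway were described by list. In primed_4d against LIF_2i the share of all genes called, 37.9%, is the background to each count. On a list of further isozymes and regulators of glycolysis 2 of 10 tested genes were called: Pgam5, which despite its name codes for a mitochondrial protein phosphatase and not a glycolytic mutase, rose and Ldhc, the testis lactate dehydrogenase, fell in primed_4d against LIF_2i (0.42 ± 0.14, adjusted p = 0.0271, and -1.67 ± 0.59, adjusted p = 0.037), and Pgam2, the muscle mutase, rose in rosette_LIM against LIF_2i (2.79 ± 0.64, adjusted p = 0.0191) with no more than 2.95 CPM in any library. The calls on Pgam5, Ldhc and Pgam2 ended without R1 LIF_2i (adjusted p = 0.221, 0.0787 and 0.294), without IB10 LIF_2i (0.192, 0.289 and 0.238), and without R1 primed_4d for Pgam5 (0.287), IB10 primed_4d for Ldhc (0.393) and IB10 rosette_LIM for Pgam2 (0.0969). Of 7 tested transport genes 2 rose and 2 fell in primed_4d against LIF_2i. Slc16a3, the lactate exporter MCT4, had 85.9 and 141 CPM in primed_4d, 42.7 and 27.4 CPM in rosette_LIM and 9.09 and 25.7 CPM in LIF_2i (2.74 ± 0.30 against LIF_2i, adjusted p = 6.12e-06). Emb, a partner protein of lactate transporters, had 144 and 171, 51.7 and 38.0, and 28.7 and 45.0 CPM (2.11 ± 0.19, adjusted p = 7.34e-07). Mpc1, a subunit of the mitochondrial pyruvate carrier, had 25.2 and 17.7, 51.7 and 68.8, and 45.9 and 41.3 CPM (-1.02 ± 0.20, adjusted p = 0.000901; 0.0508 without IB10 LIF_2i). Slc16a3 was thus higher and Mpc1 lower in primed_4d than in LIF_2i. Of the 7 genes 3 were not called, and the list's median log2 difference was -0.246 beside -0.009 over all genes.

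On a list of 20 genes of the TCA cycle and related enzymes 1 rose and 6 fell in primed_4d against LIF_2i. At 35% called this is near the 37.9% of all genes. The list's median log2 difference was -0.08 beside -0.01 over all genes. Among those that fell, Idh2, an isocitrate dehydrogenase, had 37.5 and 28.2 CPM in primed_4d, 122 and 90.0 CPM in rosette_LIM and 83.5 and 97.4 CPM in LIF_2i (-1.47 ± 0.17, adjusted p = 9.37e-06), and Idh1 changed by -0.79 ± 0.11 (adjusted p = 6.17e-05). Other genes of pyruvate use were also called about as often as all genes (38.5%): of 13, 1 rose (Pck2, 0.76 ± 0.13) and 4 fell (among them Pdp2, a phosphatase that reactivates pyruvate dehydrogenase, -1.28 ± 0.19, and Me1, malic enzyme, -0.89 ± 0.13). Of 9 further pentose phosphate and ribose genes 2 rose, Prps2, a ribose phosphate pyrophosphokinase (0.98 ± 0.13), and Tktl1 (1.49 ± 0.55; adjusted p = 0.0431, 0.154 without R1 LIF_2i, 0.288 without IB10 LIF_2i and 0.452 without IB10 primed_4d). Of 15 genes of the glycogen, hexosamine and glycerol branches 3 rose and 3 fell, again close to all genes at 40% called: Gbe1, the glycogen branching enzyme, changed by 2.12 ± 0.31 and Pgm2 by 1.57 ± 0.22, against -1.31 ± 0.17 for Pgm1. In rosette_LIM against LIF_2i 3 of these 15 rose and none fell at an adjusted p under 0.05 in edgeR, where 3.18% of all genes rose; they were Gfpt2 of the hexosamine branch (1.02 ± 0.18, adjusted p = 0.00352), Gnpnat1 and Gys1. Without R1 LIF_2i none of the 3 was called (adjusted p = 0.223, 0.477 and 0.316), nor without the cell line term (0.216, 0.0632 and 0.059). Gnpnat1 and Gys1 were also not called without IB10 LIF_2i (0.251 and 0.372) or with DESeq2 (0.102 and 0.114), Gnpnat1 without R1 rosette_LIM (0.153) and Gys1 without IB10 rosette_LIM (0.0725).

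Of the 8 pathway lists, that of HIF targets outside glycolysis had the most genes that rose in primed_4d against LIF_2i: 10 of 18 rose and 1 fell, where 18.3% of all genes rose and 19.6% fell, and the median log2 difference was 0.36 beside -0.009 over all genes. Ddit4, a stress-induced inhibitor of mTORC1, had 101 and 77.5 CPM in primed_4d, 29.2 and 28.7 CPM in rosette_LIM and 23.6 and 22.6 CPM in LIF_2i (1.95 ± 0.15, adjusted p = 2.11e-07). Mif rose by 1.22 ± 0.11 (adjusted p = 5.43e-07) and Egln3, a HIF prolyl hydroxylase, by 2.22 ± 0.25 (adjusted p = 8.85e-06). Kdm3a, a histone demethylase on the same list, fell in primed_4d against rosette_LIM (-1.49 ± 0.14, adjusted p = 1.77e-06). In rosette_LIM against LIF_2i Vegfa rose by 1.02 ± 0.14 (adjusted p = 0.000723; 0.0947 without R1 LIF_2i and 0.0731 without IB10 LIF_2i). Across wells, Spearman's rho between the 33 genes' share and that of these targets lay between 0.17 and 0.52 in the 6 libraries; both shares come from the same wells and depths. Of 18 regulators of glycolytic genes 7 rose and 3 fell in primed_4d against LIF_2i, beside the same 18.3% and 19.6% of all genes. The RNA-binding proteins Lin28a (288 and 327 CPM in primed_4d, against 57.9 and 79.1 CPM in LIF_2i) and Lin28b (24.97 and 36.9 against 4.48 and 8.99 CPM) rose by 2.17 ± 0.19 (adjusted p = 5.33e-07) and 2.24 ± 0.23 (adjusted p = 2.79e-06), and Esrrb, which is also a naive marker, fell by 3.17 ± 0.13 (adjusted p = 3.19e-10). Myc had 52.6 and 41.2 CPM in primed_4d against 9.36 and 10.9 CPM in rosette_LIM (2.19 ± 0.20, adjusted p = 1.08e-06). Mycn rose in rosette_LIM against LIF_2i by 0.73 ± 0.12 (adjusted p = 0.00234; 0.235 without R1 LIF_2i) and Epas1, which encodes HIF2A, by 0.90 ± 0.15 (adjusted p = 0.00264; 0.111 without R1 LIF_2i and 0.182 without IB10 LIF_2i).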

How the data were processed

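The deposited table holds expected counts per gene and well, which the authors derived from UMIs; BWA and mm10/GRCm38 are named in the submitters' processing notes, and no source used here gives versions, the counting annotation or the handling of multi-mapped reads. All 1297 distinct values match, to 2 decimals, a whole UMI count corrected for molecules sharing 1 of 4096 tags, with no scaling to depth. Spike-in rows (91 of 19623) were left out.

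Each library's 188 wells were added up and the sums rounded. The model in edgeR 4.0.16 (R 4.3.3; TMM, filterByExpr at 10 counts) held condition and cell line over 6 libraries, with two-sided tests adjusted (Benjamini-Hochberg) over 12098 genes. Same-numbered libraries share a cell line in the labels, which is the pairing; line differences correlated across genes by 0.181, 0.259 and 0.109 between conditions. The labels name no separate cultures within a line, so the spread may be partly technical. Alternatives were DESeq2 1.42.0, median-ratio factors, library totals, no filter, limma 3.58.1 on log2(CPM + 5), wells with at least 6000 UMIs, the mean of wells, no cell line term, and each library left out, where a lone library is assumed to vary like the others. The test was also run on data simulated with a fixed dispersion and no difference between lines. That run cannot show how the test behaves where the lines differ, and no result here rests on it. Intervals cover counting error only. Wells carry numbers and no barcodes, and no doublet caller was run.

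The members and the 17 gene lists (176 of 180 symbols found) were chosen with earlier results of these data known. Of each list other than the 33 genes, up to 3 genes past 0.05 with the smallest p could be named. Coordinates are GRCm38 (GENCODE M21).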

Additional observations from a re-analysis of the deposited data

Results flagged for a closer look

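For 9 pairs of a gene and a comparison the 2 lines moved in opposite directions, each beyond its own 95% interval of counting error; the difference between the lines was not tested, since each line gave 1 library per condition. In rosette_LIM against LIF_2i, in log2 CPM, Pfkl differed by 0.58 in IB10 and -0.60 in R1, Tpi1 by 0.48 and -0.52, Ldha by 0.48 and -0.33, Pgk1 by 0.44 and -0.14, Pgd by 0.24 and -0.30, Pkm by 0.20 and -0.07, Pgam1 by 0.16 and -0.10, and Gapdh by 0.11 and -0.34. In primed_4d against rosette_LIM, Eno3 differed by -0.47 in IB10 and by 0.76 in R1. Such pairs and the signs below were not counted over all genes, so the counts have no background. The 8 genes of the rosette_LIM comparison were all higher in IB10 and lower in R1; of the 33 genes, 20 had the same sign in both lines in this comparison, 28 in primed_4d against LIF_2i and 32 in primed_4d against rosette_LIM.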

How the results depend on the processing

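No call on the 33 genes changed direction under any alternative run. In primed_4d against LIF_2i 12 of 20 calls, and in primed_4d against rosette_LIM 12 of 21, held in every alternative; of the 3 calls between rosette_LIM and LIF_2i and the 2 between lines, 0 did. With limma on the mean of wells, which changes both the test and the weight of each well, 3 calls ended in primed_4d against LIF_2i (Gapdh, Hk2 and Pdhb) and 2 in primed_4d against rosette_LIM (Aldoc and Tkt); limma on log2(CPM + 5) of the library sums ended none of these 5. DESeq2 ended 4 calls in primed_4d against LIF_2i (G6pdx, Gapdh, Hk2 and Pdhb). It ended 6 in primed_4d against rosette_LIM (Aldoc, Gapdh, Hk2, Pdha1, Pdk2 and Slc2a1). It also ended those on Eno3 and Ldhb between rosette_LIM and LIF_2i and on Pgls between lines. Without the cell line block 4 calls in primed_4d against LIF_2i ended (Gapdh, Hk2, Ldhb and Pdhb), 3 in primed_4d against rosette_LIM (Hk2, Pdha1 and Pgls) and all 3 between rosette_LIM and LIF_2i. The cause of each change here was not tested. Among the 33 genes, rosette_LIM against LIF_2i gave 0 higher (2 in the fit reported) with DESeq2, library totals, limma on log2(CPM + 5), the mean of wells and no cell line block, with 3 to 4 genes higher at an unadjusted p under 0.05 in each, and 2 lower (1 reported) with library totals, no filter or wells with at least 6000 UMIs and 0 without the block (4 at an unadjusted p under 0.05). IB10 against R1 gave 3 higher without the filter and 0 without the condition block (0 unadjusted), and 0 lower with DESeq2, both limma fits and no block (0 or 1 unadjusted). Over all genes, DESeq2 called 170 higher and 109 lower in rosette_LIM against LIF_2i, 1343 and 1432 in primed_4d against LIF_2i, 1223 and 1479 in primed_4d against rosette_LIM, and 15 and 35 in IB10 against R1. Without the block, rosette_LIM against LIF_2i had 162 higher and 119 lower and IB10 against R1 had 0 and 0 (42 and 147 at an unadjusted p under 0.05). With no filter, 474 were lower in rosette_LIM against LIF_2i and 116 higher and 212 lower in IB10 against R1. The mean of wells gave 246 higher in rosette_LIM against LIF_2i and 16 higher and 27 lower between lines, and limma on log2(CPM + 5) gave 18 higher between lines.

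With 1 library left out, rosette_LIM against LIF_2i had 0 to 3 of the 33 genes higher and 0 to 4 lower, and 26 to 588 and 31 to 429 of all genes. Primed_4d against LIF_2i had 9 to 14 higher and 3 to 8 lower, and 1037 to 2573 and 1216 to 2722 of all genes. Primed_4d against rosette_LIM had 10 to 11 higher and 5 to 8 lower, and 1394 to 1828 and 1756 to 2023 of all genes. IB10 against R1 had 0 to 3 higher and 0 to 2 lower, and 0 to 150 and 0 to 224 of all genes. The lowest counts between rosette_LIM and LIF_2i and between lines came without R1 LIF_2i or IB10 LIF_2i. Depth limits Eno1, Eno2, Pdk2 and Rpia, each under 8 CPM in every library.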
